A study of Mus musculus with 6 samples.

Results

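The Gm14440 cluster is a run of closely related genes of the KRAB zinc finger type on distal mouse chromosome 2. Its members were chosen by name and by depth: of the 24 deposited rows whose symbols fall in the numbered series Gm14290 to Gm14449, the 10 with the most counts summed over all libraries were kept, and Gm14440, which ranks 16th on that measure, was added because its counts had differed between the genotypes in an earlier analysis of the same data. That makes 11 genes of 18227 in the table. The 10th gene by depth, Gm14399, had 414.77 counts in all and the first gene left out, Gm14443, had 406.1; the 13 rows left out had between 1 and 406.1 counts. The ranking by depth took no account of genotype, but the series was taken because it holds Gm14440. The difference of Gm14440 between genotypes was the reason for its choice and is described here with no test.

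KRAB zinc finger proteins are the largest family of transcriptional repressors of mammals. Their zinc fingers bind DNA, often in transposable elements, and the KRAB box recruits the corepressor Trim28 (KAP1), which brings in the histone methyltransferase Setdb1 and heterochromatin proteins. The genes arise by tandem duplication, so that neighbours in a cluster can be almost the same in sequence, and they are known for fast turnover between species and strains.

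The libraries come from corneas of C57BL/6 males aged 6 weeks, 3 from Muc13-/- mice (KO 1 to 3) and 3 from wild-type mice (WT 1 to 3). Muc13 encodes a transmembrane mucin of epithelial surfaces. The sources used here do not say how the allele was made or whether a library is 1 animal or a pool, so p-values measure the spread between these samples, which may be technical. Library totals ranged over 14068882 to 15480348 counts, and 3 counts, the floor used for a count of 0, correspond to 0.185 to 0.233 CPM (counts scaled to a library of fixed size by the TMM method). Muc13 itself had 9, 4 and 2 counts across KO 1 to 3, against 18, 21 and 9 counts across WT 1 to 3, so it was low in every library and the groups met at 9 counts; it did not pass the filter on low counts and was not tested. The corneal epithelium markers were present throughout, at 5746 to 33370 CPM summed in the KO libraries and 26500 to 110600 CPM in the WT libraries, and so were retina markers. The 12 retina markers, all detected in every library, summed to 36030, 20570 and 21610 CPM across KO 1 to 3, against 70.6, 239 and 23260 CPM across WT 1 to 3; WT 1 and WT 2 therefore stand apart. Gene counts of such bulk tissue do not tell fewer cells of a type from less RNA per cell.

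All 24 rows of the series are annotated on chromosome 2 (GENCODE M21, GRCm38), and the 11 members span 2.83 Mb, chr2:175129493-177957297, on both strands. In this annotation each of the 11 is protein coding. A KRAB signature, a pattern of conserved residues of the KRAB A box that was widened after the members' sequences were seen and searched in all reading frames, was found in annotated transcripts of 11 of 11 members, against 1.51% of the 18170 other table genes that could be searched. Of the 11 members, 9 also had 8 to 25 repeats of the C2H2 zinc finger pattern in their longest annotated coding sequence, which was 1074 to 2502 bases long. Gm14440 and Gm14296 had 0 such repeats in theirs. The coding sequence of Gm14440 is 192 bases and holds the KRAB part alone, although 11 finger repeats can be read from its long transcript outside the annotated coding part.

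The sequences show how alike these genes are. The short annotated transcript of Gm14440 (192 bases, 2 exons, chr2:175283298-175283694, plus strand) is shown first because it holds the KRAB part of the gene, with the 33 bases of the KRAB signature in capitals.
Gm14440: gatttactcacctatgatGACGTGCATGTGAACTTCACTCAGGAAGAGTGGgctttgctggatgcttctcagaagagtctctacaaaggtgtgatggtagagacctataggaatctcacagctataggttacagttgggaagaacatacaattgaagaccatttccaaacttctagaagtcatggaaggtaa
All 192 bases also occur, on the minus strand, at chr2:175792468-175792864 in the gene Gm14288. The same 33 bases of the signature in the other members follow, with capitals for bases that differ from Gm14440; in Gm14440 they lie in exon 2 of 3 of the long transcript (chr2:175283316-175283348).
Gm14440, Gm14296 and Gm14418: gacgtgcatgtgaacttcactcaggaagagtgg
Gm14305, Gm14434 and Gm14410: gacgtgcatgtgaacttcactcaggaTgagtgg
Gm14295 and Gm14391: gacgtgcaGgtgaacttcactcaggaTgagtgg
Gm14325: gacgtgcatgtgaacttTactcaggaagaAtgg
Gm14326 and Gm14399: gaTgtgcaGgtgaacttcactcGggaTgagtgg
The 11 members thus carry 5 versions of this segment, and none differs from Gm14440 by more than 4 of 33 bases.

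Their promoters are alike too. RefSeq promoters (GRCm38.p6, 250 bases before the start to 50 after it) were given for 8 of the 11 members. Those of the other 7 were 94.1% to 98.8% identical to that of Gm14440 where they overlap. The promoters of Gm14440 (chr2:175274875-175275174, plus strand), of its copy Gm14288 (chr2:175800989-175801288, minus strand), of Gm14295 (chr2:176798350-176798649, plus strand), which is the closest member, and of Gm14326 (chr2:177957239-177957538, minus strand), a more distant one, are shown with bases that differ from Gm14440 in capitals.
Gm14440: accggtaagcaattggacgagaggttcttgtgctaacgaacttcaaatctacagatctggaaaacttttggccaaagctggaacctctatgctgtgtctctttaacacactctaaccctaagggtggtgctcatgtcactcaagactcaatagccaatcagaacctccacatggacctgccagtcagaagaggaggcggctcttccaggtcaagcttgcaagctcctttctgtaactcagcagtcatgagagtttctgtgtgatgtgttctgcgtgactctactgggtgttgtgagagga
Gm14288: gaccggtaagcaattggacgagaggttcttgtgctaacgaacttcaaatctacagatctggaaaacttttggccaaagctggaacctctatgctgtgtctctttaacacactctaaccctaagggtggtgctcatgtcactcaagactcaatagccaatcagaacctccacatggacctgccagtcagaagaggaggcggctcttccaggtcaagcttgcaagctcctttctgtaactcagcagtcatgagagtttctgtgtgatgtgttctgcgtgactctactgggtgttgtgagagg
Gm14295: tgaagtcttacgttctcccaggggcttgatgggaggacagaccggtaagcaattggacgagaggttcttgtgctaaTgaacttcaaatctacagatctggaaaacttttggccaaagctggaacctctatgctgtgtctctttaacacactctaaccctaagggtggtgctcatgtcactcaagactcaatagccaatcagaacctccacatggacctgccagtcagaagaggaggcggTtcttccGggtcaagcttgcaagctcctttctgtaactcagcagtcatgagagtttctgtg
Gm14326: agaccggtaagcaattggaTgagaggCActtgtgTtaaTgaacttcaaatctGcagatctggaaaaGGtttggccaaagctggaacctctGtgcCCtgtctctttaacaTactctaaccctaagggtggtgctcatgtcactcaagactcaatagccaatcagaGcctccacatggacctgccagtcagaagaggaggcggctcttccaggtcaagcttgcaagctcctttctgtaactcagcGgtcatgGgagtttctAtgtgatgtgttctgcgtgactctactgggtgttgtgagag
The promoter of Gm14288 had 0 differences over 299 bases, that of Gm14295 had 3 over 260 and that of Gm14326 had 16 over 298. The CCAAT box, searched as CCAAT on both strands, was found in 8 of 8 member promoters and in 37.4% of the 32851 RefSeq promoters of this length. It was also in each of the 18 promoters given for other genes that start within the interval, so it is not particular to the members. The member promoters are near copies, so they are not 8 separate observations.

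Because the genes are near copies, a short read can match several of them. Counts that are not whole numbers, as programs give that divide a read between matching genes, occurred in at least 1 library for 11 of 11 members and in all 6 libraries for 9 of them, against 9.9% of all table genes in at least 1 library. Gm14325 was not whole in 5 libraries and Gm14440 in 4. To see how much of each gene is its own, every window of 100 bases in its annotated transcripts was looked up in the transcripts of all other genes. Of these windows, 63.7% were found in no other gene for Gm14391, 61.9% for Gm14418, 56.5% for Gm14399 and 48.3% for Gm14296. The share was 24.8% for Gm14410, 0.3% for Gm14434 and 0% for Gm14440. Windows were pooled over all annotated transcripts of a gene, so long transcripts weigh most. Gm14391 has one of 5536 bases with no annotated coding part, while the length implied by its counts, FPKM and library totals was 669 to 910 bases. Its share need not hold for the transcripts that were counted. Gm14434 shared 96.9% of its windows with Gm2026 and 96.0% with Gm14308, and each member shared at least 1 window with between 14 and 30 other genes. Read length is not stated; with windows of 50 bases the shares were 64.2% for Gm14391 and 0% for both Gm14434 and Gm14440.

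**Figure D1:**
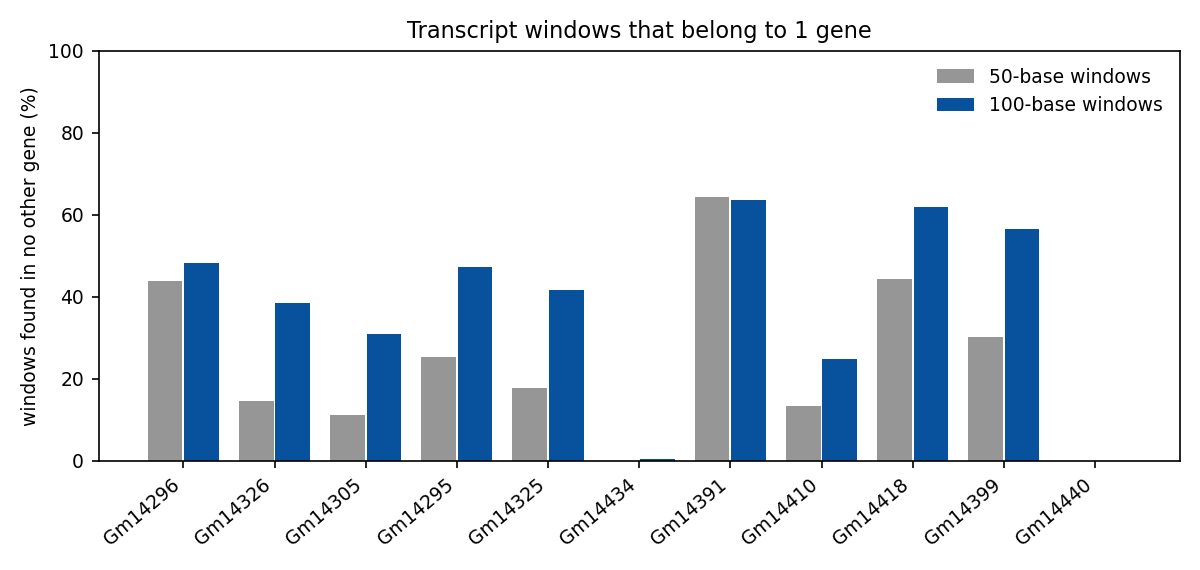
Share of transcript windows of 50 bases (grey) and 100 bases (blue) that occur in no other annotated gene, in percent, for each of the 11 genes. Gm14440 stands at 0% for both lengths and Gm14434 at 0% and 0.3%, while Gm14391 reaches 64.2% and 63.7%.

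Gm14440 (ENSMUSG00000078901, chr2:175275125-175286805, plus strand) was counted in the knockout libraries and hardly at all in the wild-type libraries. It reached 56.27, 120.31 and 69.75 counts across KO 1 to 3, against 0.25, 0 and 0 counts across WT 1 to 3. The groups did not overlap, as in 4.71% of all genes tested with the knockout higher, and KO 2 was the highest. The KO mean was 5.38 ± 2.38 CPM (SD, n = 3), or 25.5-fold the mean floor of 3 counts in the WT libraries. That floor covers counting error only and not how reads were divided with the copy Gm14288, described next. The fold is therefore no lower bound on a change of Gm14440. The counts of Gm14440 are the values that chose the gene. It passed the filter on low counts through the knockout libraries alone.

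Gm14288 (ENSMUSG00000078889, chr2:175789357-175801093, minus strand), which lies 502.6 kb from Gm14440, is its copy: 100% of the windows of Gm14440, at 50 and at 100 bases, are found in Gm14288, and the 3382-base transcript of Gm14440 is contained whole in the 3438-base transcript of Gm14288. In the other direction 98.3% of the windows of that Gm14288 transcript are found in Gm14440. Gm14288 had 55.78, 0.5 and 39.62 counts across KO 1 to 3, against 77.63, 77.98 and 102.17 counts across WT 1 to 3. Its counts were thus lowest in KO 2, where those of Gm14440 were highest, and the knockout libraries lay below every wild-type library (log2 fold change −1.54, SE 1.32, edgeR quasi-likelihood adjusted p = 0.533). Gm14288 is not among the 11 genes and was singled out after the sequences and its values were seen.

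The sum of both copies varied far less than either. It was 112.05, 120.81 and 109.37 counts across KO 1 to 3, against 77.88, 77.98 and 102.17 counts across WT 1 to 3. Gm14440 took 50.2%, 99.6% and 63.8% of that sum across KO 1 to 3, against 0.3%, 0% and 0% across WT 1 to 3. In scaled values the sum was 7.44 ± 0.710 CPM across the knockout libraries, against 5.99 ± 0.419 CPM across the wild-type ones (SD, n = 3 each), a log2 ratio of 0.31. The lowest knockout library, at 6.74 CPM, lay above the highest wild-type library, at 6.37 CPM. Of all single genes tested, 4.71% were likewise higher in the knockout without overlap. The log2 ratio of the sum was 0.47 with library size alone as the scale and 0.22 against WT 3 alone. No test is given for the sum, since it holds the counts that chose Gm14440. No base of the annotated transcripts of Gm14440 lies in a 50-base window that Gm14288 lacks, so these transcripts give a read of that length no means to tell the genes apart; what set the split of reads in each library was not tested.

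**Figure D2:**
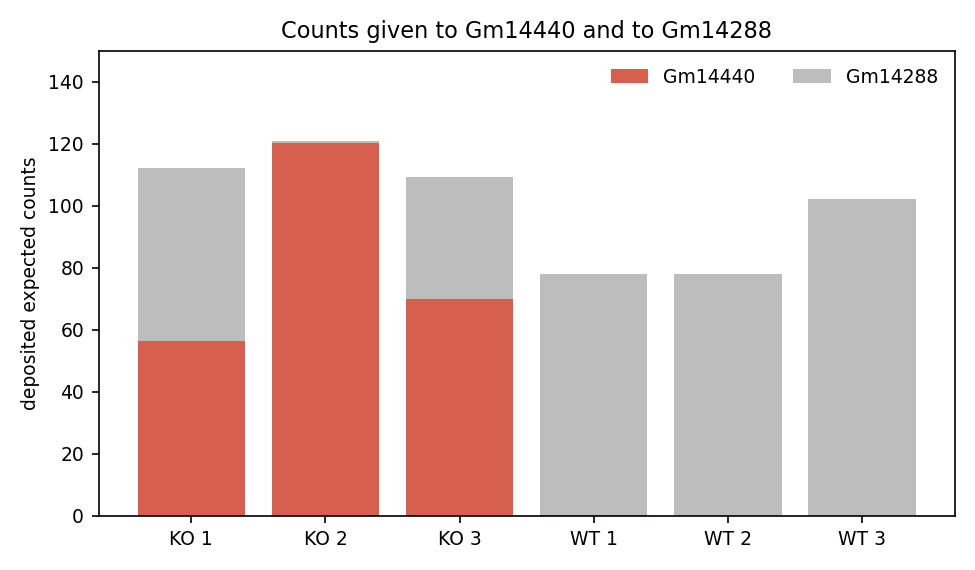
Deposited expected counts of Gm14440 (red) with those of its copy Gm14288 (grey) stacked above in each library, knockout libraries at the left. The summed bar is 109.37 to 120.81 counts in the knockout and 77.88 to 102.17 in the wild type, while the red part is 56.27 to 120.31 in the knockout and at most 0.25 in the wild type.

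The values per length of Gm14440 went another way than its counts. Its deposited TPM (transcript abundance, a level corrected for gene length and library size) was 1.93, 3.29 and 2.03 across KO 1 to 3, against 8.81, 0 and 0 across WT 1 to 3. WT 1, with 0.25 of a count, thus has the highest TPM of all 6 libraries. The gene length implied by the counts, the deposited FPKM and the library total was 3077, 3084 and 3083 bases across KO 1 to 3, against 2.05 bases in WT 1. The KO lengths are near the 3382-base transcript, and the gene's other annotated transcript is the 192-base one printed above. How the length behind the WT 1 value came about was not tested.

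The other 10 members did not differ between genotypes by the test. In edgeR's quasi-likelihood test over 14983 genes, 0 of the 10 passed an adjusted p of 0.05, as did 0% of all genes tested, and 0 of the 10 had an unadjusted p under 0.05, where 4.38% of all genes did. DESeq2 likewise called 0 of the 10, and 72 genes or 0.409% of those it gave an adjusted p. Without WT 3, where 34.1% of all genes passed in edgeR, 0 of the 10 did. The groups overlapped in 10 of 10, where they did not overlap in 10.2% of all genes tested. Log2 fold changes (knockout over wild type) were −0.40 to 0.59 with a median of 0.10, beside 0.02 for all genes; 6 lay above 0 and 4 below, and with library size alone as the scale Gm14410 was the only one below 0. In 9 of the 10 the sign turned under at least 1 alternative; Gm14326 kept it in all that were run. A miss of the threshold does not show equal levels: the SEs were 0.279 to 0.496 on the log2 scale. In simulated counts that gave every gene the common dispersion of these libraries, the test called no changed gene. The spread of a single gene can differ from that, so the simulation does not give the power for these 10.

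Gm14296 (chr2:176892509-176927809, minus strand), which has the most counts of the cluster, had 479.78, 716.9 and 531.63 counts across KO 1 to 3, against 335.65, 279.56 and 652.17 counts across WT 1 to 3. WT 3 lay among the knockout libraries and WT 1 and WT 2 below them. The means were 37.7 ± 9.32 CPM across the knockout libraries, against 28.9 ± 10.7 CPM across the wild-type ones (SD, n = 3 each; log2 fold change 0.38, SE 0.330, edgeR adjusted p = 0.534). Against WT 3 alone the value was −0.11.

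Gm14326 (chr2:177935993-177957297, minus strand), second by counts, had the largest log2 fold change of the 10. Its 15 finger repeats are encoded in 1662 coding bases. It had 249.63, 387.11 and 298.99 counts across KO 1 to 3, against 165.21, 154.51 and 268.26 counts across WT 1 to 3. In CPM, KO 1 was at 16.6 and WT 3 at 16.7, so the groups overlapped there, while KO 2 lay above and WT 1 and WT 2 below all others. It averaged 20.4 ± 5.07 CPM across the knockout libraries, against 13.5 ± 2.91 CPM across the wild-type ones (log2 fold change 0.59, SE 0.279, edgeR adjusted p = 0.501, unadjusted p = 0.0799). The value was 0.29 against WT 3 alone. For Gm14296 and Gm14326, WT 1 and WT 2 were the lowest libraries, as they were for the retina markers. Muscle markers were the other way round, at 56.8, 629 and 297 CPM across KO 1 to 3, against 2568, 2080 and 208 CPM across WT 1 to 3, and melanocyte, stroma and endothelium markers had their lowest value in WT 1; the part of tissue content in these differences was not tested.

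Gm14305 and Gm14434 carry the same version of the KRAB segment and share 66.0% of the windows of Gm14305. Gm14305 (chr2:176708328-176721813, plus strand; 14 finger repeats) had 155.07, 300.24 and 191.87 counts across KO 1 to 3, against 184.6, 134.18 and 218.42 counts across WT 1 to 3. Gm14434 (chr2:176473278-176486783, minus strand; 13 repeats) had 129.23, 238.78 and 124.38 counts across KO 1 to 3, against 173.67, 139.18 and 145.68 counts across WT 1 to 3. For both, KO 2 was the highest library and the groups overlapped. In the annotation Gm14305 overlaps Zfp973 on the same strand, so its counts are uncertain in that respect too. The log2 fold change of Gm14305 was 0.18 (SE 0.350, edgeR adjusted p = 0.745) and that of Gm14434 was −0.01 (SE 0.384, edgeR adjusted p = 0.991).

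Gm14295 (chr2:176798612-176811223, plus strand) has the longest finger array of the cluster, 25 repeats in 2502 coding bases. Its counts were 161.62, 292.05 and 148.73 across KO 1 to 3, against 182.95, 131.09 and 217.84 across WT 1 to 3, with KO 2 again the highest. The log2 fold change was 0.09 (SE 0.379). Gm14391 (chr2:175191065-175206917, minus strand; 16 repeats), the member with the most windows of its own, had 108.34, 241.47 and 80.03 counts across KO 1 to 3, against 107.62, 99.27 and 132.29 counts across WT 1 to 3. KO 2 lay above and the other knockout libraries were within or below the wild-type range; its log2 fold change was 0.26 (SE 0.496) with all libraries and −0.38 without KO 2.

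Gm14410, Gm14325 and Gm14418 also had log2 fold changes below 0. Gm14410 (chr2:177183453-177206421, minus strand; 9 repeats) had 92.05, 169.93 and 77.24 counts across KO 1 to 3, against 184.59, 114.56 and 110.39 counts across WT 1 to 3 (−0.40, SE 0.485). Gm14325 (chr2:177831791-177840336, minus strand; 14 repeats) had 157.21, 185.16 and 130.0 counts across KO 1 to 3, against 192.13, 121.11 and 175.87 counts across WT 1 to 3 (−0.16, SE 0.322). WT 1 was the highest library in CPM for both genes, and their groups overlapped. Gm14418 (chr2:177387124-177398320, minus strand; 8 repeats) had 75.92, 132.85 and 132.75 counts across KO 1 to 3, against 109.12, 101.28 and 134.58 counts across WT 1 to 3 (−0.12, SE 0.331). It is annotated as a pseudogene in RefSeq and as protein coding in GENCODE. Gm14399 (chr2:175129493-175142012, minus strand; 18 repeats) was the lowest of the 10 by counts, at 4.71, 4.80 and 4.87 CPM across KO 1 to 3, against 4.51, 2.91 and 5.92 CPM across WT 1 to 3 (0.11, SE 0.383).

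**Figure D3:**
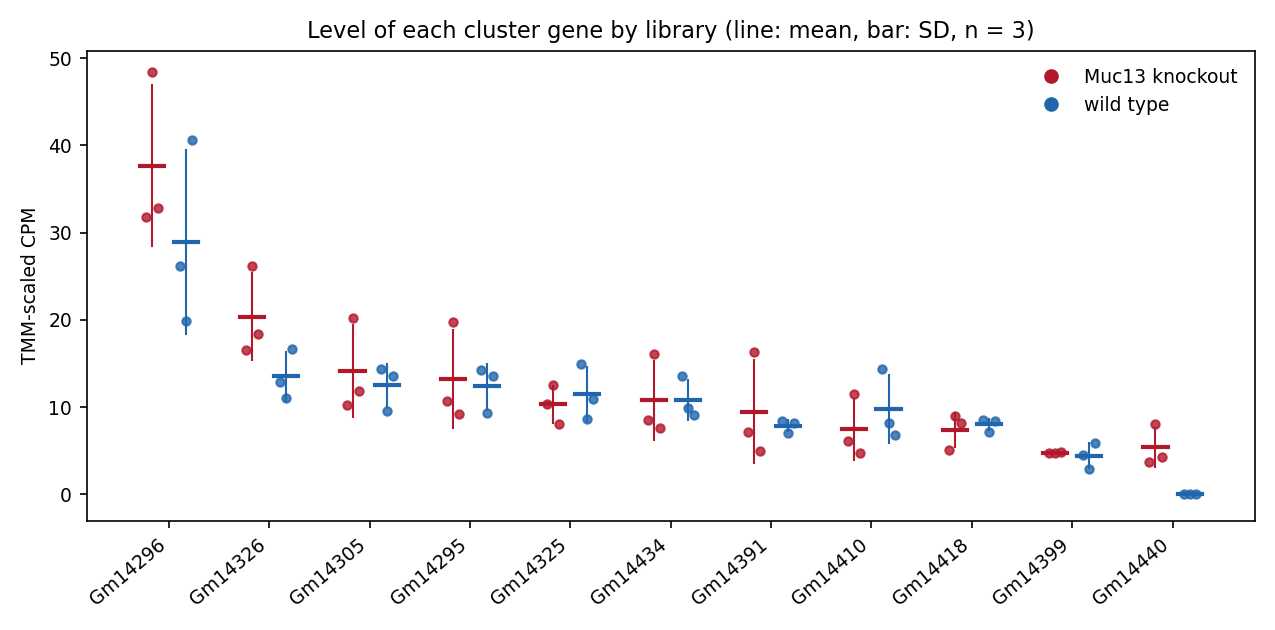
TMM-scaled CPM of the 11 genes in each library, knockout (red) left of wild type (blue), with the mean and the SD of 3 libraries. The groups overlap in every gene but Gm14440, whose wild-type libraries are at 0 after rounding and whose knockout libraries are at 3.71 to 8.11 CPM.

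**Figure D4:**
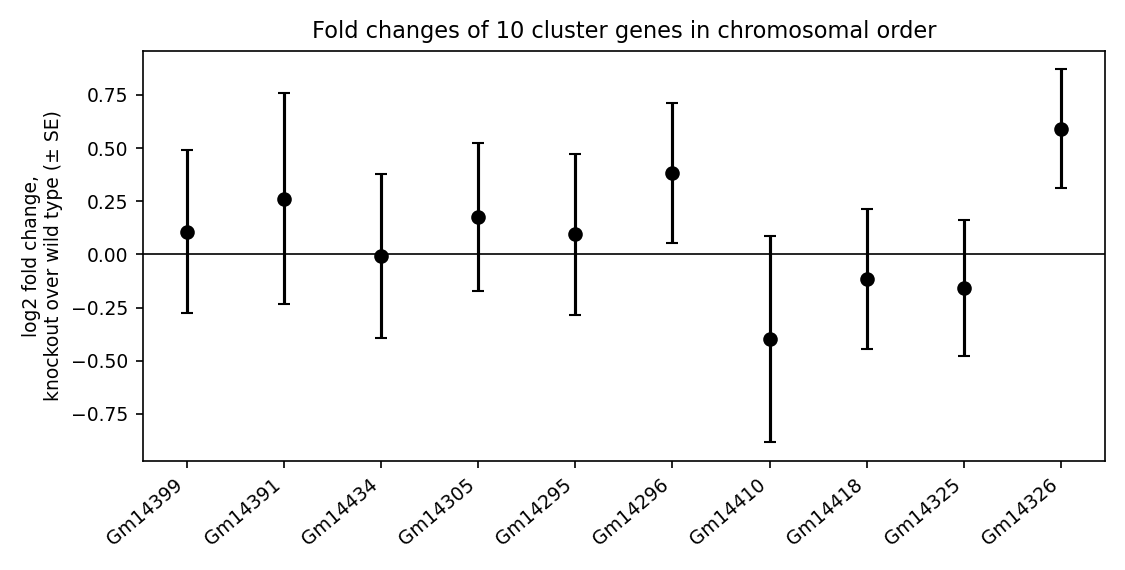
Log2 fold change, knockout over wild type, with its SE for the 10 genes other than Gm14440, in the order of their position on chromosome 2 (equal spacing, not to scale). Values run from −0.40 for Gm14410 to 0.59 for Gm14326 and lie on both sides of 0.

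Single libraries stood out within a group. KO 2 was the highest library for 7 of the 10 genes and KO 3 the lowest for 5, although both are knockout libraries. WT 2 was the lowest for 4. The shares of all genes tested with these extremes were not computed, so the counts are not shown to be particular to the members. The 10 genes also share sequence, so they are not 10 separate observations. Tissue markers also set these libraries apart: 7 lens markers, 3 of them at 0 in some library, summed to 2715, 58010 and 69.5 CPM across KO 1 to 3, against 11.8, 2452 and 27880 CPM across WT 1 to 3. Corneal epithelium markers were at 33120, 33370 and 5746 CPM across KO 1 to 3, against 110600, 86360 and 26500 CPM across WT 1 to 3. Lens markers were thus highest in KO 2 and epithelial ones lowest in KO 3, and their part in the members' levels was not tested. The highest library of a gene was 1.78 to 3.30 times its lowest. Summed over the 10 genes, the level was 111, 185 and 111 CPM across KO 1 to 3, against 132, 93.5 and 134 CPM across WT 1 to 3. The means were 136 ± 42.6 CPM across the knockout libraries, against 120 ± 22.8 CPM across the wild-type ones (SD, n = 3 each), a log2 ratio of 0.18, which was −0.11 without KO 2 and 0.02 against WT 3 alone. This sum does not depend on how reads were divided among the 10 genes, though it does on reads divided with other genes. Without Gm14296 and Gm14326 the other 8 genes summed to 77.5 ± 28.4 CPM across the knockout libraries, against 77.4 ± 15.1 CPM across the wild-type ones.

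**Figure D5:**
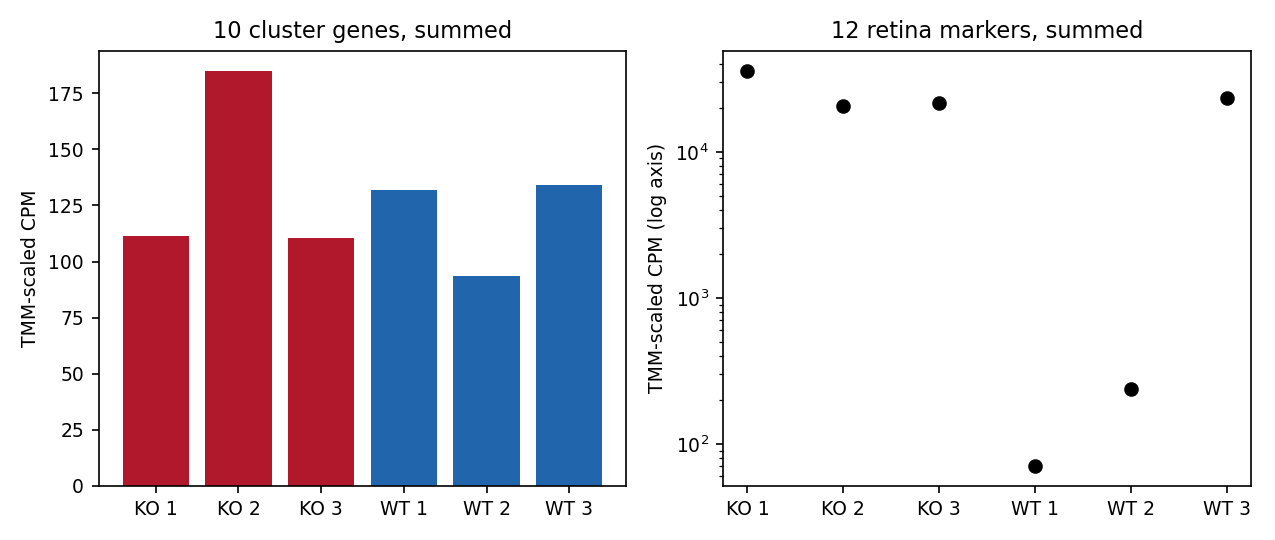
Left, TMM-scaled CPM summed over the 10 genes other than Gm14440 in each library (red knockout, blue wild type), with KO 2 highest at 185 CPM and WT 2 lowest at 93.5 CPM. Right, the 12 retina markers on a log axis, at 20570 to 36030 CPM in the knockout libraries and WT 3 at 23260 CPM, against 70.6 and 239 CPM in WT 1 and WT 2.

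Adding each of these genes to the gene with which it shares most windows gave sums whose groups overlapped in every case. Gm14434 with Gm2026 summed to 15.5 ± 6.60 CPM across the knockout libraries, against 15.4 ± 1.39 CPM across the wild-type ones. Gm14410 with Gm14308 summed to 12.3 ± 3.70 CPM across the knockout libraries, against 12.0 ± 5.19 CPM across the wild-type ones, and Gm14326 with Gm14399 to 25.2 ± 5.13 CPM across the knockout libraries, against 18.0 ± 4.41 CPM across the wild-type ones.

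Per length, the order of the members was not that of their counts. Gm14325 had the highest TPM, at 87.4 ± 32.4 across the knockout libraries, against 102 ± 15.8 across the wild-type ones (SD, n = 3 each), although it ranks 5 by counts. Its implied length was 117 to 233 bases, while its longest transcript has 1576 bases and its shortest 310. Next came Gm14326, at 41.8 ± 4.81 TPM across the knockout libraries, against 23.1 ± 12.1 TPM across the wild-type ones, and Gm14305, at 19.5 ± 5.02 TPM across the knockout libraries, against 15.1 ± 4.65 TPM across the wild-type ones. Gm14296, first by counts, ranks 10 by TPM, at 11.3 ± 1.51 across the knockout libraries, against 7.80 ± 4.35 across the wild-type ones, with an implied length of 4354 to 4876 bases. The implied length of Gm14399 ran from 250 to 986 bases between libraries, so its TPM of 23.98 in KO 2 and 7.14 in KO 3 came from 71.06 and 78.52 counts.

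Around the members, 29 other table genes start within the interval, 27 of them with counts that are not whole in some library. Of the 20 that passed the filter on low counts, 0 rose, 0 fell and 20 did not pass, with log2 fold changes of −1.54 to 1.10 and a median of 0.04; DESeq2 also called 0. The groups did not overlap in 1, which is Gm14288 (lower), where 5.51% of all genes tested did not overlap with the knockout lower. The 4 with the most counts were Gm4631, at 96.3 ± 10.5 CPM across the knockout libraries, against 85.7 ± 16.8 CPM across the wild-type ones, 2210418O10Rik, Zfp966 and Zfp967. Their log2 fold changes were 0.17 for Gm4631, −0.42 for 2210418O10Rik, 0.20 for Zfp966 and −0.29 for Zfp967.

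Counts that switch between libraries were not limited to Gm14440 and Gm14288. Of the 40 rows in the interval, 5 had at least 20 counts in 1 library and 10 times fewer, or less, in another. These were picked after their values were seen. The share of all table genes that meet this rule was not computed, so such switching is not shown to be particular to the interval. Zfp965 had 24.51, 1.09 and 39.01 counts across KO 1 to 3, against 70.74, 64.19 and 2.99 counts across WT 1 to 3, so it was near 0 in a library of each genotype. Zfp973 had 37.17, 87.3 and 47.86 counts across KO 1 to 3, against 5.15, 22.51 and 77.17 counts across WT 1 to 3. Gm14308 had 46.97, 72.56 and 103.99 counts across KO 1 to 3, against 46.96, 8.07 and 39.75 counts across WT 1 to 3. In CPM the genotypes overlapped in each of these 3.

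The genes listed for the machinery through which KRAB zinc fingers repress did not differ by the test. The list includes Zfp57 and Zfp809, which are zinc finger genes themselves and also count among the Zfp-named genes below. Of the 28 genes listed, all tested, 0 rose, 0 fell and 28 did not pass in edgeR or DESeq2. In edgeR, 2 had an unadjusted p under 0.05 (7.14%, beside 4.38% of all genes tested). The median log2 fold change was −0.09, beside 0.02 for all genes. Trim28, the corepressor that the KRAB box binds, was at 135 ± 2.66 CPM across the knockout libraries, against 148 ± 11.2 CPM across the wild-type ones (log2 fold change −0.13, SE 0.160, adjusted p = 0.6075 in edgeR). Setdb1, which methylates histone H3 at the sites Trim28 is brought to, was at 53.9 ± 2.69 CPM across the knockout libraries, against 58.6 ± 2.97 CPM across the wild-type ones (−0.12, SE 0.131). The 3 with the smallest p were Morc3, an ATPase that helps to silence chromatin (−0.42, SE 0.165), the deacetylase Hdac1 (−0.56, SE 0.219) and Uhrf1, which maintains DNA methylation (−1.52, SE 0.625). Each had its highest values in WT 1 and WT 2, where retina markers were low; Uhrf1 was at 13.4, 16.5 and 6.16 CPM across KO 1 to 3, against 46.0, 45.2 and 12.2 CPM across WT 1 to 3. The part of tissue content was not tested. Without WT 3, 8 of the 28 passed (28.6%), beside 34.1% of all genes in that fit.

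Genes named Zfp, most of which encode zinc finger proteins but not all with a KRAB box, gave 0 higher, 0 lower and 364 not called among the 364 tested in edgeR, and 0 in DESeq2. Their median log2 fold change was 0.15, beside 0.02 for all genes, and 6 had an unadjusted p under 0.05 (1.65%, beside 4.38% of all genes). The groups did not overlap in 27 that were higher in the knockout and 16 that were lower, or 11.8%, beside 10.2% of all genes. Without WT 3, 86 of the 365 Zfp-named genes then tested passed (23.6%), a smaller share than the 34.1% of all genes in that fit.

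The genes whose pattern over the 6 libraries was most like that of Gm14440, by Pearson correlation of log2 CPM among 13322 tested genes with whole counts in every library and a mean of at least 1 CPM, were Gadd45a (r = 0.994), Prb1 (0.971), Fosb (0.953), Zfp180 (0.942) and Smyd4 (0.941). These r are the highest of many and describe 6 libraries only. They rest on the values that chose Gm14440, which depend on how reads were divided with Gm14288. The ranking thus favours genes that are higher in the knockout. All 5 were higher there without overlap, as were 4.71% of all genes tested, and this is no separate result about them. Gadd45a, a stress-response gene, was at 33.2, 35.9 and 34.8 CPM across KO 1 to 3, against 26.3, 26.2 and 27.1 CPM across WT 1 to 3, a far narrower range than that of Gm14440. Prb1, a proline-rich secretory protein gene, was at 8.95, 7.03 and 2.10 CPM across KO 1 to 3, against 0 CPM in every WT library.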

How the data were processed

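RNA-seq of 6 mouse cornea libraries was analysed, grouped by the genotype in the labels. The build is GRCm38 (mm10), per the submitters' processing notes; for aligner, counting program, read length and strand, the sources used here give nothing. The authors deposited expected counts (estimated reads per gene, not normalized), scaled counts (a signal, not used in the tests), TPM and FPKM for 18227 genes; 18196 matched GENCODE M21 by identifier. The 8 average columns were not used. A count was called whole within 1e-06.

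Expected counts were rounded and tested in R 4.3.3 with edgeR 4.0.16 (quasi-likelihood, TMM, filterByExpr, robust, genotype as the only term, Benjamini-Hochberg over 14983 genes; 3244 were removed). DESeq2 1.42.0 and limma 3.58.1 gave alternatives. The fit was tested on simulated counts with known changes. It recovered nearly all of the larger changes at a low dispersion and none at the common dispersion of these libraries. Each simulated set gave all genes the same dispersion, so it does not give the power for single genes. A count of 0 does not show equal levels. Each SE is the absolute log2 fold change over the root of its F statistic. Log2 CPM used a prior count of 2, and log2 TPM a pseudocount of 1. All genes tested had a median log2 fold change of 0.02, which library size alone as the scale moved to 0.19. With 3 against 3, an exact permutation test cannot go below p = 0.1, so none was run. Limits from 3 counts cover counting error only. Sequence windows came from GENCODE transcripts and promoters from RefSeq.

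The members and lists were chosen with earlier results of these data known. Named genes were all members, the 4 neighbours with the highest mean CPM, Trim28, Setdb1, the 3 machinery genes with the smallest p, Muc13 and the 5 genes most like Gm14440; Gm14288, Zfp965, Zfp973 and Gm14308 fall outside and were chosen after their values were seen. All 7 marker lists overlapped between the genotypes, with wide ranges over the libraries: stroma at 1696 to 6023 CPM in the knockout and 462 to 2682 CPM in the wild type, endothelium at 271 to 395 CPM and 23.7 to 439 CPM, and melanocytes at 896 to 6331 CPM and 11.1 to 2685 CPM, knockout before wild type in each.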

Additional observations from a re-analysis of the deposited data

How the results depend on the processing

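The count of 0 past the threshold among the 10 members other than Gm14440, which was given no test, and of 0 among the neighbours, was the same under all alternatives run: scaling by library size or by DESeq2 factors, no filter or one of at least 1 CPM in 3 libraries, DESeq2, limma-voom, limma-trend on log2(TPM + 1), counts rounded up, the replicate block and leaving out each library. Over the table, 0 genes passed in edgeR, 72 with DESeq2 and from 0 to 5166 with 1 library left out; the machinery list gave 0 to 8 and the Zfp-named genes 0 to 86 in those fits, the highest in each case without WT 3. The counts of Gm14440 round to 0 in each WT library, so its log2 fold change depends on how a method treats 0. That log2 fold change was 9.32 in the main edgeR fit and is not an estimate of its size. It was 8.69 with DESeq2, 7.18 with limma-voom, 7.40 with counts rounded up and 5.78 against WT 3 alone with 0.1 CPM added. On log2(TPM + 1), where WT 1 has the highest value of all libraries, it was 0.65. It was 8.90 (without KO 2) to 9.52 with 1 library left out. Summed with Gm14288, an alternative chosen after seeing the data, it was 0.31. The sum of the other 10 members had a log2 ratio of 0.18, with a range of −0.11 to 0.31 when 1 library was left out and 0.33 with library size alone; it comes from no fit, so the filter, DESeq2, limma-voom and replicate-block alternatives give no value for it. Of 160 fold changes of single members under alternatives, 19 changed sign and 5 moved by more than 1 SD between replicates; Gm14326 on log2(TPM + 1) was at 0.93.

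Whether replicate numbers pair the samples is open, since the labels do not say so. For each gene, the mean log2 CPM of the genotype was subtracted first, so the correlations compare deviations within a genotype and not expression levels. In these deviations, same-numbered libraries correlated at 0.0905, 0.363 and 0.190. Each knockout library correlated best with its own number. The highest correlation with another number was 0.013 for KO 1, 0.18 for KO 2 and −0.097 for KO 3. The replicate block left 0 members and 0 genes called, with 2529 genes at an unadjusted p under 0.05 against 656 without it.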
